A study of Mus musculus with 6 samples.

Results

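A list of 32 genes that mark macrophages and other myeloid cells was read in RNA-sequencing libraries of cultured mouse cardiac fibroblasts (CFs). A row of the count table belonged to the set when its symbol was on the list. Of the 32, 29 had a row among the 19446 genes of the table. *Ccr2*, *Cd163* and *Aif1* had none by symbol. A filter of at least 10 reads in at least 2 libraries left 27 of the 29 for testing, without *Cx3cr1* and *Lyve1*. The cells came from 5-week-old mice of 2 genotypes, wild type (WT) and CharmeKO, with 3 libraries each, numbered 1 to 3 in both groups. CharmeKO mice carry a polyadenylation signal inserted into the *Charme* gene, which gives rise to a long non-coding RNA, on a C57BL/6J background, and WT is the same background without the insertion. All cells had grown out of pieces of atrial tissue from pooled littermates on fibronectin, in medium rich in serum. A depletion of blood cells is described for the freshly isolated CFs of the study, which were not analysed here, and not for these cultures.

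Macrophages live in every chamber of the heart beside fibroblasts. They depend on the receptor Csf1r and the transcription factor PU.1, take up debris and opsonised particles through Fc, complement and scavenger receptors, and digest them in lysosomes rich in lysozyme and cathepsins. The ligand of Csf1r, Csf1, is made by fibroblasts and other stromal cells. All values below come from RNA pooled over the cells of a culture, so that fewer cells of a type and less RNA per cell cannot be told apart.

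The macrophage genes were read at low levels in all 6 libraries and varied widely between them. Levels are given in CPM, reads per 1000000 reads of the library. The summed level of the 29 genes was 360, 193 and 89.3 CPM in WT 1, WT 2 and WT 3, and 693, 434 and 39.2 CPM in CharmeKO 1, CharmeKO 2 and CharmeKO 3. The highest and the lowest library were both CharmeKO, and the WT libraries lay between them. The group means were 214 ± 137 CPM in WT and 389 ± 329 CPM in CharmeKO (SD, n = 3), so that the groups overlapped. On the log2 scale the CharmeKO mean of the summed level exceeded the WT mean by 0.31, against a pooled SD within groups of 1.73. The libraries of number 1 had the most macrophage reads, those of number 2 came next and those of number 3 had the fewest, with means of 527, 314 and 64.2 CPM over the 2 libraries of a number. The first of these means was 8.20 times and the second 4.88 times that of number 3. Gene by gene, the ratio of number 1 to number 3 had a median of 13.4 over the 29 genes. The 39.2 CPM of CharmeKO 3 held 8.10 CPM of *Csf1r*, 7.37 of *Cd14*, 6.84 of *Lyz2*, 5.06 of *Cd53* and 3.55 of *Mertk*. Apart from *Lyz2*, these genes varied between the libraries in other ways than most of the set.

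**Figure D1:**
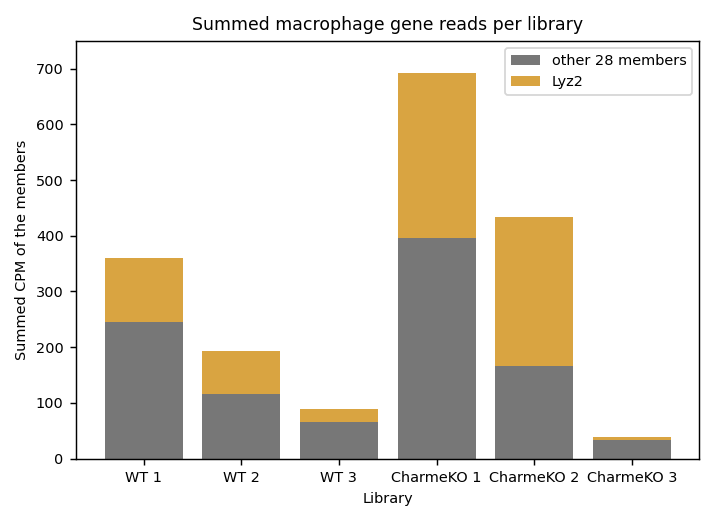
Summed CPM (y axis, linear from 0) of the 29 macrophage genes in each of the 6 libraries (x axis), split into *Lyz2* and the other 28 genes. CharmeKO 1 stood highest at 693 CPM and CharmeKO 3 lowest at 39.2 CPM, with the 3 WT libraries between 89.3 and 360 CPM.

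The libraries held 38330019 to 46797446 reads, and a gene with 0 reads could lie at up to 0.0641 to 0.0783 CPM (3 reads of a library, counting error only). The methods of the study describe independent primary isolations for its experiments, and the labels do not tie single libraries to isolations, so the p-values measure the spread between these libraries whatever its source. CUFF405, the only row without an Ensembl identifier and therefore taken to be *Charme*, had 5, 15 and 11 reads in WT 1 to WT 3 and 0, 6 and 3 reads in CharmeKO 1 to CharmeKO 3. These few reads overlapped between the groups. Same-numbered libraries deviated together from their group means in numbers 1 and 2, with correlations across genes of 0.76 and 0.51. For number 3 the correlation was 0.217, no higher than the 0.222 between WT 2 and CharmeKO 3. The numbers were taken to pair the libraries, although these values do not set number 3 apart as a pair.

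The order of the libraries was shared by most of the macrophage genes. In 15 of the 29 genes the CPM fell from CharmeKO 1 through WT 1, CharmeKO 2, WT 2 and WT 3 to CharmeKO 3, an order found in 0.956% of all 19446 genes (16 genes and 1.09% with the size factors of the table in place of library totals, where *C1qb* joins). This order, like the patterns that follow, was picked with the values of these genes known. The shares therefore describe the set and test nothing. The summed level had another order, with CharmeKO 2 at 434 CPM above WT 1 at 360 CPM. CharmeKO 1 was the highest library for 24 of the 29 genes, against 14.6% of all genes. CharmeKO 3 was the lowest for 24, against 16.8% of all genes. In 27 of the 29 genes both libraries of number 1 stood above both of number 3, which held for 28.1% of all genes. *Cd14* and *Lyve1* were the exceptions. Numbers 1, 2 and 3 followed each other from high to low without overlap in 16 genes, against 2.71% of all genes (17 genes and 2.87% with the size factors). The 29 genes were measured in the same 6 libraries and are not independent of each other.

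**Figure D2:**
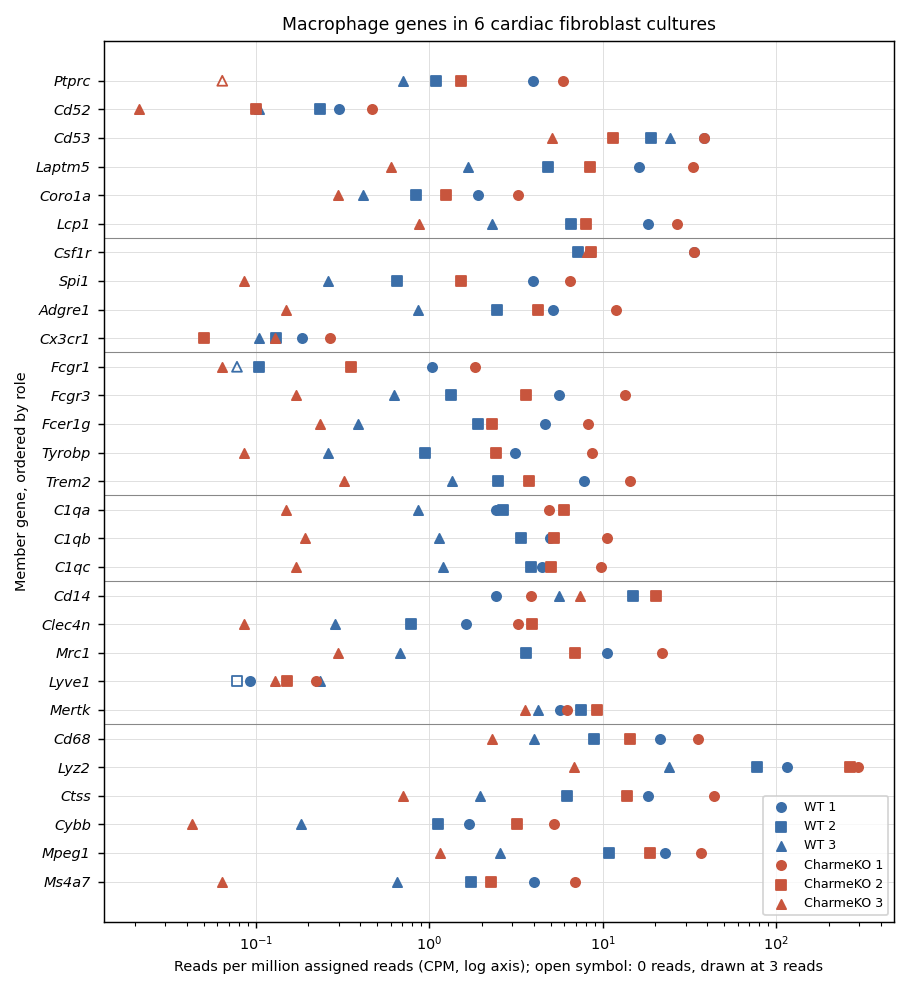
CPM (x axis, log scale) of each of the 29 genes (y axis, ordered by role) in the 6 libraries, blue for WT and red for CharmeKO, with circles, squares and triangles for replicate numbers 1, 2 and 3. Open symbols mark 0 reads and are drawn at 3 reads. Both circles lie to the right of both triangles in 27 of the 29 genes, all but *Cd14* and *Lyve1*. The circles of both genotypes coincide in *Cd53* and *Csf1r*.

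The leukocyte surface and cytoskeleton genes were 6, all of them found and tested. *Laptm5*, a lysosomal membrane protein of blood cells, was at 16.2, 4.85 and 1.66 CPM in WT 1 to WT 3 and at 33.0, 8.49 and 0.598 CPM in CharmeKO 1 to CharmeKO 3. *Lcp1*, an actin-bundling protein, was at 18.1, 6.52 and 2.29 CPM in WT and 26.8, 8.04 and 0.876 CPM in CharmeKO. Both followed the common order of the libraries. *Ptprc*, which encodes CD45, a surface marker of leukocytes, was at 3.98, 1.10 and 0.701 CPM in WT and 5.93, 1.53 and 0 CPM in CharmeKO. CharmeKO 3 thus had no read of *Ptprc*, which allows up to 0.0641 CPM, while CharmeKO 1 had 265 reads. *Cd53*, a tetraspanin, departed from the others, with 38.5, 18.9 and 24.3 CPM in WT and 38.5, 11.5 and 5.06 CPM in CharmeKO. Its WT 3 level stood above its WT 2 level, and it differed little between both libraries of number 1. *Coro1a*, another actin-binding protein, ranged from 0.299 to 3.24 CPM and *Cd52* from 0.0214 to 0.470 CPM, the latter with 52 reads in all.

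The macrophage receptors and the lineage factor gave a mixed picture. *Adgre1*, the gene of the classical mouse macrophage marker F4/80, was at 5.19, 2.45 and 0.857 CPM in WT and 11.99, 4.24 and 0.150 CPM in CharmeKO. *Spi1*, which encodes PU.1, was at 3.94, 0.652 and 0.260 CPM in WT and 6.46, 1.53 and 0.0855 CPM in CharmeKO. Both genes spanned a wide range in the common order. *Csf1r* was at 33.6, 7.18 and 8.47 CPM in WT and 33.7, 8.59 and 8.10 CPM in CharmeKO. It was therefore high in number 1 alone, about equal in numbers 2 and 3, and nearly the same in both genotypes at each number. Its reads per read of *Laptm5*, on the log2 scale, were 1.05, 0.56 and 2.35 in WT and 0.03, 0.02 and 3.76 in CharmeKO, so that *Csf1r* did not fall with the other genes in number 3. *Cx3cr1*, a chemokine receptor of monocytes and resident macrophages, stayed between 0.0502 and 0.268 CPM with 2 to 12 reads per library.

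The factor encoded by *Spi1* binds DNA at purine-rich sites that contain GAGGAA, and the promoters of the macrophage genes were read for these letters. RefSeq promoter sequences (GRCm38.p6, 250 bases before to 50 bases after a transcript start) were matched by symbol for 20 of the 29 genes. GAGGAA stood on either strand in the promoters of 13 of these 20 genes and of 31.3% of 27025 symbols in all. The longer form GAGGAAGT, which contains the shorter one, stood in those of *C1qc*, *Cd53* and *Ctss*, 3 of 20, and of 3.69% of all symbols. Stretches before the start of 5 genes from 4 roles are shown to make the motif visible, in lower case, 5′ to 3′ on the strand of the gene, with each GAGGAA, GAGGAAGT or reverse complement in capitals. They are *C1qb* at chr4:136886201-136886270 (minus strand), *C1qc* at chr4:136893062-136893149 (minus strand), *Ctss* at chr3:95526582-95526667 (plus strand), *Mrc1* at chr2:14229194-14229279 (plus strand) and *Trem2* at chr17:48346321-48346400 (plus strand), all on GRCm38.p6.
C1qb: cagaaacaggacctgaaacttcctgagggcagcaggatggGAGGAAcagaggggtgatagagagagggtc
C1qc: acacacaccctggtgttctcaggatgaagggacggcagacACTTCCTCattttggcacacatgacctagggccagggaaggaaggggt
Ctss: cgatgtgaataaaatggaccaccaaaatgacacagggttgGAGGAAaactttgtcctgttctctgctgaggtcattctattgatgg
Mrc1: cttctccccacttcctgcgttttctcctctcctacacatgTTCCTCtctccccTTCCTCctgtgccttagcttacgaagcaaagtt
Trem2: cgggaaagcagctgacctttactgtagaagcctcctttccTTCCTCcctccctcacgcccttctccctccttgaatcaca
The capitals begin 30 bases before the start in *C1qb*, 195 in *C1qc*, 164 in *Ctss*, 180 and again 167 in *Mrc1*, and 40 in *Trem2*. The stretch shown for *Ctss* holds the shorter form only, and its GAGGAAGT lies outside that stretch. A match of letters is a description of the window and no measure of binding in these cells.

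The Fc receptors and the adaptors with immunoreceptor tyrosine-based activation motifs (ITAMs) kept the common order in 4 of 5 genes, all but *Fcgr1*. *Tyrobp*, an ITAM adaptor of myeloid cells, was at 3.104, 0.939 and 0.260 CPM in WT and 8.63, 2.44 and 0.0855 CPM in CharmeKO. Its partner receptor *Trem2*, which binds lipids, was at 7.76, 2.50 and 1.35 CPM in WT and 14.3, 3.77 and 0.321 CPM in CharmeKO. The signalling chain *Fcer1g* was at 4.66, 1.90 and 0.390 CPM in WT and 8.25, 2.31 and 0.235 CPM in CharmeKO. In these 3 genes number 1 was above number 2 and number 2 above number 3 in both genotypes. *Fcgr3*, a low-affinity IgG receptor, followed them with 0.171 to 13.4 CPM. *Fcgr1*, the high-affinity IgG receptor, was at 1.04, 0.104 and 0 CPM in WT and 1.83, 0.352 and 0.0641 CPM in CharmeKO. It had 0 reads in WT 3 and 3 reads in CharmeKO 3 and was the other gene, with *Cd14*, that was higher in CharmeKO at each number. Reads that fit several Fc gamma receptor genes are lost in the counting of the authors, so the levels of this family are uncertain.

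The complement chains *C1qa*, *C1qb* and *C1qc*, which assemble into the recognition molecule C1q and lie next to each other on chromosome 4 (136880129 to 136898803 on GRCm38), fell less between numbers 1 and 2 than *Laptm5* and *Lcp1* did, or not at all. *C1qa* was at 2.41, 2.66 and 0.857 CPM in WT and 4.92, 5.95 and 0.150 CPM in CharmeKO. *C1qb* was at 4.96, 3.39 and 1.14 CPM in WT and 10.5, 5.22 and 0.192 CPM in CharmeKO. *C1qc* was at 4.47, 3.84 and 1.19 CPM in WT and 9.82, 5.05 and 0.171 CPM in CharmeKO. The mean of number 1 was 0.851 times that of number 2 for *C1qa*, 1.80 times for *C1qb* and 1.61 times for *C1qc*, and it was 3.69 times that of number 2 for *Laptm5*. Relative to *Laptm5*, the C1q reads were at log2 ratios of -0.45, 1.03 and 0.94 in WT and -0.38, 0.93 and -0.22 in CharmeKO. With *Lcp1* as the reference, the ratios were -0.61, 0.60 and 0.48 in WT and -0.08, 1.013 and -0.77 in CharmeKO. C1q thus stood higher relative to the leukocyte genes in both libraries of number 2 than in both of number 1, under either reference, and number 3 was split between the genotypes. The CharmeKO 3 ratios rest on 24 reads of C1q and 28 of *Laptm5*.

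The pattern recognition and scavenger receptors contained the genes that departed most from the rest. *Mrc1*, the mannose receptor of tissue macrophages, kept the common order, with 10.6, 3.600 and 0.675 CPM in WT and 22.0, 6.88 and 0.299 CPM in CharmeKO. *Cd14*, a co-receptor for bacterial lipopolysaccharide, was at 2.41, 14.9 and 5.56 CPM in WT and 3.87, 20.3 and 7.37 CPM in CharmeKO. It was lowest in number 1, where the other genes were highest, and highest in number 2. *Mertk*, a receptor for the uptake of dying cells, was at 5.70, 7.49 and 4.23 CPM in WT and 6.24, 9.29 and 3.55 CPM in CharmeKO. Its highest and lowest levels were the closest, as a ratio, among the 26 genes with reads in every library, and it was also highest in number 2. *Clec4n*, which encodes the C-type lectin Dectin-2, was at 1.62, 0.783 and 0.286 CPM in WT and 3.24, 3.89 and 0.0855 CPM in CharmeKO. *Lyve1*, a hyaluronan receptor of resident macrophages and of lymphatic endothelium, had 0 to 10 reads per library.

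The lysosomal and effector genes included *Lyz2*, which had the most reads of the set over all libraries together. *Lyz2*, lysozyme M (chromosome 10, 117277331 to 117282321 on GRCm38), was at 116, 77.7 and 23.9 CPM in WT and 298, 267 and 6.84 CPM in CharmeKO. It made up 32.1%, 40.3% and 26.8% of the macrophage reads in WT 1 to WT 3 and 43.0%, 61.6% and 17.4% in CharmeKO 1 to CharmeKO 3. Without it, the summed level was 245, 115 and 65.3 CPM in WT and 395, 167 and 32.4 CPM in CharmeKO, with the same order of libraries within each genotype. Its close paralog *Lyz1* shares sequence with it, and reads that fit both copies are not in the table. *Lyz2* differed from the leukocyte genes in number 2 of CharmeKO, where its log2 ratio to *Laptm5* was 4.98, against 2.84 to 4.00 in the other 5 libraries. *Ctss*, the protease cathepsin S, was at 18.3, 6.21 and 1.95 CPM in WT and 43.6, 13.9 and 0.705 CPM in CharmeKO. *Cd68*, a lysosomal membrane glycoprotein, was at 21.5, 8.92 and 4.03 CPM in WT and 35.2, 14.4 and 2.29 CPM in CharmeKO. *Mpeg1*, a pore-forming protein of phagosomes, was at 22.9, 10.9 and 2.57 CPM in WT and 36.6, 18.6 and 1.15 CPM in CharmeKO. These 3 genes followed the common order. *Cybb*, the catalytic chain of the phagocyte NADPH oxidase, ranged from 0.0427 to 5.21 CPM, and *Ms4a7*, a membrane protein of macrophages, from 0.0641 to 6.93 CPM.

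**Figure D3:**
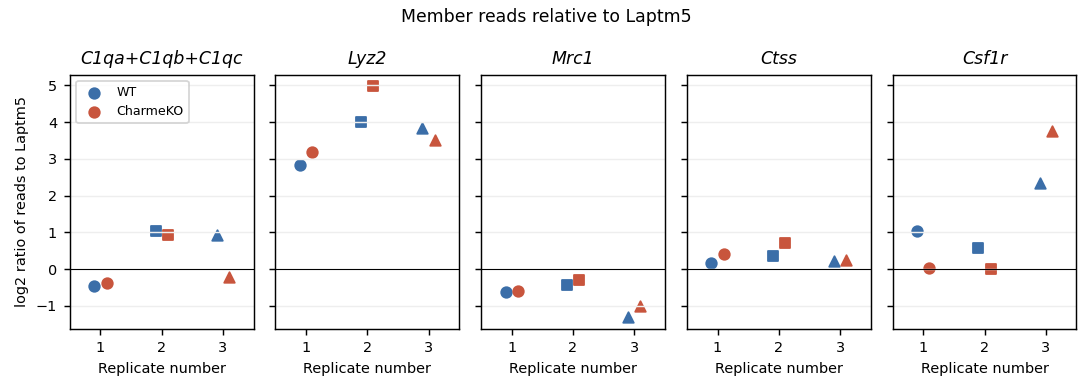
Log2 ratio of reads of C1q (3 chains summed), *Lyz2*, *Mrc1*, *Ctss* and *Csf1r* to reads of *Laptm5* (y axis) by replicate number (x axis), blue for WT and red for CharmeKO. *Ctss* stays between 0.17 and 0.71, C1q is above 0.9 in both libraries of number 2 and below 0 in both of number 1, and *Csf1r* is highest in number 3.

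Set per length of exon, in mean CPM per kilobase over the 6 libraries, *Lyz2* had the highest level at 99.9, followed by *Cd53* at 13.1, *Cd68* at 11.4, *Ctss* at 10.4 and *Cd14* at 5.24. The 3 C1q chains lay at 2.12 to 3.90, *Laptm5* at 2.85 and *Csf1r* at 2.87. *Ptprc* was at 0.121 and *Cx3cr1* at 0.0321, the lowest. In this order, the ranges over the 6 libraries overlapped in 28 of the 28 pairs of neighbours, so that no step was larger than the spread.

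CharmeKO and WT were compared to ask whether the macrophage genes change with the loss of *Charme*. No gene of the set passed the test. By limma on log2(value + 1), 0 of 27 macrophage genes and 0 of the 15948 genes tested (0.0%) passed the adjusted threshold of 0.05, and 0 of the 27 had an unadjusted p under 0.05, against 143 or 0.897% of all genes. edgeR also called 0 genes and DESeq2 called 8, with 0 macrophage genes in both. The log2 fold changes of CharmeKO over WT ran from -1.31 for *Ptprc* to 1.38 for *Fcgr1*, both of which had 0 reads in a library, with standard errors of 0.42 to 2.00. They were above 0 in 17 genes and below 0 in 10, with a median of 0.10 beside a median of 0.00 over all genes tested. *Lyz2*, the gene with the most reads, had a log2 fold change of 0.41 ± 1.503 (SE, 95% interval -3.19 to 4.02). The adjusted p of limma was 0.9999 for all 27 genes. Of the 29 genes, 0 had WT and CharmeKO levels that did not overlap, against 4.85% of all genes.

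The direction of the difference depended on the replicate number. In number 1, CharmeKO was above WT in 29 of 29 genes, with a median difference of 0.84 on the log2(value + 1) scale. In number 2 it was above in 26, with a median of 0.62, the exceptions being *Cd52*, *Cd53* and *Cx3cr1*. In number 3 it was below in 26, with a median of -1.49, the exceptions being *Cd14*, *Cx3cr1* and *Fcgr1*. The full pattern, above in numbers 1 and 2 and below in number 3, was found in 24 of 29 genes and in 14.2% of all genes. It too was picked with the values of these genes known and is a description. CharmeKO was above WT at each number in 2 genes, *Cd14* and *Fcgr1*, against 17.3% of all genes. The summed level of CharmeKO was 1.92 times that of WT in number 1, 2.25 times in number 2 and 0.440 times in number 3. These pairs have 1 library per genotype, and the difference between them was not tested.

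**Figure D4:**
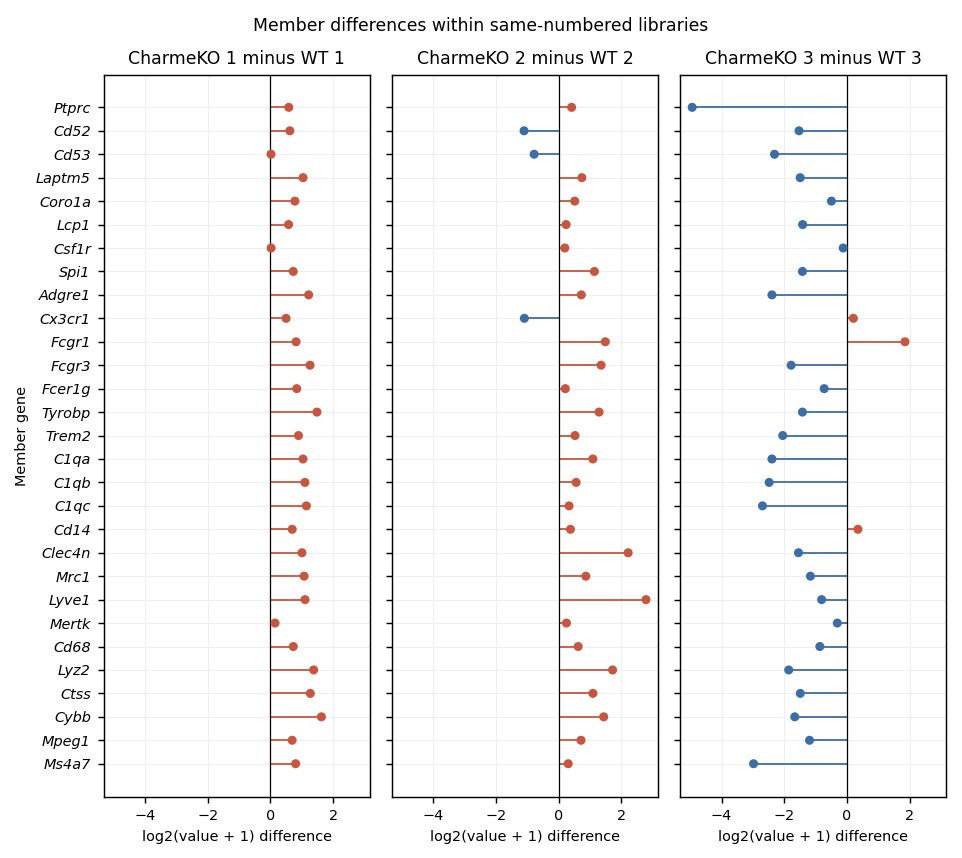
Difference CharmeKO minus WT on the log2(value + 1) scale (x axis) for each of the 29 genes (y axis) in replicate numbers 1, 2 and 3, red above 0 and blue below. Medians are 0.84, 0.62 and -1.49, and 26 genes lie below 0 in number 3.

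With the replicate number as a block, the paired fit of limma called 0 macrophage genes as well. Unadjusted p under 0.05 was reached by 2 of 27, *Fcgr1* (log2 fold change 1.38 ± 0.47, SE, unadjusted p = 0.036 by limma) and *Cd14* (0.47 ± 0.16, unadjusted p = 0.040 by limma), against 5.37% of all genes, and both had an adjusted p of 0.80. Leaving out CharmeKO 3 moved the median log2 fold change of the set from 0.10 to 1.47, and leaving out CharmeKO 1 moved it to -1.03, with 0 macrophage genes called in either fit. Leaving out both libraries of number 3 from the paired fit, the pair whose direction opposed the others and a choice made after seeing the data, gave a median of 0.74. It gave an unadjusted p under 0.05 in 16 of 27 genes, against 8.36% of all genes, and 0 passed adjustment. Without the pair of number 1 or of number 2 the median was -0.22 or -0.25.

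The replicate numbers were compared in the same values, beside genotype, to ask whether a gene differed between numbers by more than same-numbered libraries differ. The F test of limma called 8 of 27 macrophage genes (adjusted p under 0.05), against 1379 of 15948 genes or 8.65%. They were *Csf1r* and *Cd14* (adjusted p = 0.036 each), *Fcgr1* and *Fcer1g* (0.041 each), *Mrc1* (0.043), *Mpeg1* (0.045), *Lcp1* (0.047) and *Cd68* (0.049). In 7 of them number 1 was highest, and in *Cd14* it was lowest. The other 19 had adjusted p of 0.052 to 0.162. The mean of number 1 was 33.4 times that of number 3 for *Mrc1*, 15.98 times for *Mpeg1*, 4.06 times for *Csf1r* and 0.486 times for *Cd14*. The replicate number took a median of 88.8% of the variance of the 27 genes and genotype 0.527%, beside 73.8% and 5.91% over all genes tested. The number term has more levels than genotype, so that it takes a larger share of any variance.

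The calls between numbers changed with the tool and with the library left out. edgeR called 3 of the 27 genes, against 655 or 4.11% of all genes, and DESeq2 called 23, against 4944 or 31% of all genes. Without WT 1, WT 2, CharmeKO 1 or CharmeKO 2, limma called 0 macrophage genes and 0 genes in all, and without WT 3 or CharmeKO 3 it called 26 and 23 macrophage genes among 5906 and 4501 genes. In these fits the lone library of a number was assumed to vary like the others.

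Markers of other cells were read in the same libraries. The 11 fibroblast genes all had rows and summed to 25517 to 54156 CPM, led by the collagen genes *Col1a1* (9285 to 20004 CPM) and *Col1a2* (5064 to 17132 CPM), so that defining markers of the labelled cell type were present. Of the T cell list 3 of 8 genes had a row, with a summed level of 0.491 to 3.31 CPM, and *Cd3e*, *Cd3d*, *Cd3g*, *Cd4* and *Cd8a* had none. Of the B cell list 3 of 6 had a row (0.235 to 0.533 CPM), of the neutrophil list 2 of 8 (0.0214 to 0.291 CPM), of the mast cell list 4 of 7 (0.582 to 1.85 CPM) and of the dendritic cell list 1 of 7 (*Zbtb46*, 3.57 to 7.03 CPM). The NK cell and erythroid lists, of 6 genes each, had no row. The blood endothelial list had 6 of 8 genes at 1.197 to 8.50 CPM in sum, and *Pecam1*, its defining marker, was at 0.0427 to 0.157 CPM. The lymphatic endothelial list had 5 of 5 genes at 147 to 426 CPM, most of it *Pdpn* (143 to 406 CPM), which fibroblasts also express. *Flt4*, a receptor of lymphatic endothelium, was at 41.8 CPM in WT 3 and at 3.68 to 17.0 CPM in the other 5 libraries, and *Prox1* was at 0.278 to 2.41 CPM. The cardiomyocyte list had 4 of 8 genes at 3.43 to 18.5 CPM. The part of these cells in the differences between libraries was not tested.

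**Figure D5:**
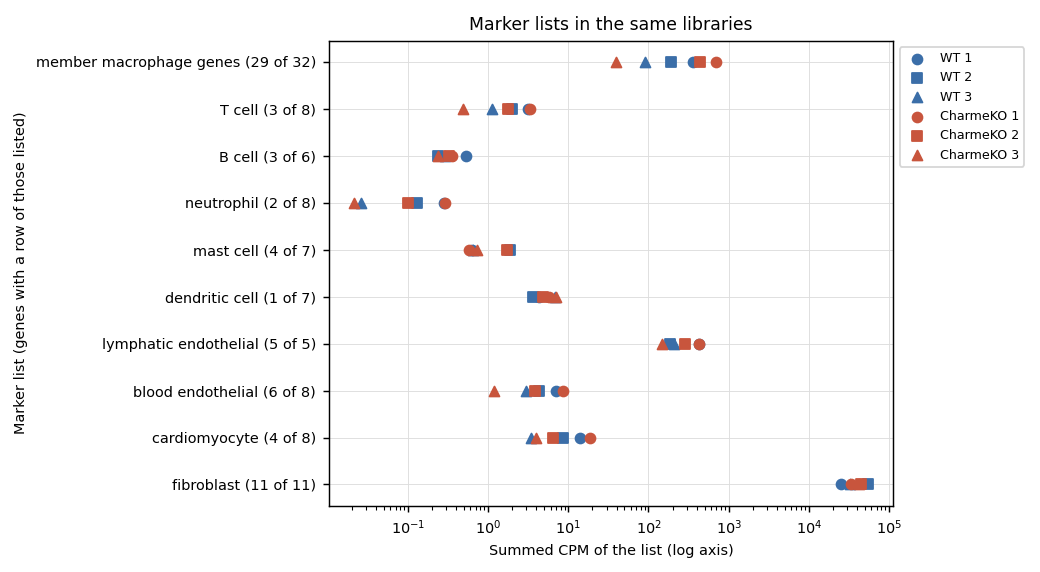
Summed CPM (x axis, log scale) of the 29 macrophage genes and of 9 marker lists (y axis, with genes found of genes listed) in the 6 libraries, symbols as for the single genes. The macrophage genes span 39.2 to 693 CPM, while the fibroblast list spans 25517 to 54156 CPM.

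Other genes of macrophage pathways were read from 10 lists with 81 genes, of which 68 had a row and 61 were tested. Between the genotypes 0 of the 61 passed adjustment and 0 had an unadjusted p under 0.05 by limma, with 32 fold changes above 0 and 29 below. edgeR and DESeq2 also called 0 of these genes. Between the replicate numbers the F test of limma called 5 of 61, or 8.20%, beside the 8.65% over all genes. These 5 were *Ncf4*, a subunit of the NADPH oxidase, *Maf*, a transcription factor, *Apoe* and *Lpl*, which act in lipid transport, and the chemokine *Ccl3*.

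Most partners of the phagocyte receptors shared the higher level in number 1 than in number 3, and fewer of them the full order of numbers. All 11 genes of the list of myeloid kinases and ITAM signalling, all 5 partners of the NADPH oxidase and 8 of 9 leukocyte integrins and motility genes had both libraries of number 1 above both of number 3, against the 28.1% of all genes given above. Numbers 1, 2 and 3 followed each other from high to low without overlap in 5 of the 11, 4 of the 5 and 2 of the 9, against 2.71% of all genes. The exception among the 9 was *Arhgdib*, at 48.2, 13.8 and 53.9 CPM in WT and 59.5, 31.6 and 3.97 CPM in CharmeKO. The kinase *Syk*, which acts on ITAMs, was at 20.0, 12.4 and 5.43 CPM in WT and 18.8, 3.39 and 3.21 CPM in CharmeKO. Unlike most of the macrophage genes, *Syk* was lower in CharmeKO than in WT at each number. *Vav1*, a guanine nucleotide exchange factor of blood cells, was at 2.41, 0.391 and 0.130 CPM in WT and 4.18, 0.778 and 0 CPM in CharmeKO. *Ncf4* was at 1.53, 0.548 and 0.0779 CPM in WT and 1.92, 0.452 and 0 CPM in CharmeKO. In each genotype these 3 genes fell from number 1 through number 2 to number 3, as *Tyrobp* and *Mrc1* did. *Cyba*, an oxidase subunit that many cells express, was at 68.8 to 138 CPM in the 6 libraries.

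The remaining genes named from these lists, some of which fibroblasts and other stromal cells are known to express as well, varied in several ways. *Csf1*, the ligand of Csf1r, was at 3659, 1260 and 2950 CPM in WT and 3784, 1172 and 2070 CPM in CharmeKO, lowest in number 2, where *Cd14* was highest. *Il34*, the other ligand, was at 0.502 to 1.97 CPM. Of the lists of resident and lipid-associated macrophages, *Maf* was at 22.8, 121 and 87.02 CPM in WT and 27.8, 213 and 233 CPM in CharmeKO, and *Apoe* at 172, 236 and 46.8 CPM in WT and 209, 833 and 103 CPM in CharmeKO. *Lpl* was at 31.5, 303 and 67.2 CPM in WT and 46.7, 561 and 61.8 CPM in CharmeKO. All 3 were higher in number 2 than in number 1 in both genotypes, as *Cd14* and *Mertk* were. *Gpnmb*, a lysosomal glycoprotein, went with the macrophage genes from high to low, at 571, 239 and 107 CPM in WT and 802, 666 and 57.9 CPM in CharmeKO. *Spp1*, which encodes osteopontin, was highest in number 3, at 153, 264 and 1625 CPM in WT and 356, 258 and 725 CPM in CharmeKO. *Arg1*, an enzyme of arginine breakdown, was at 22.1 CPM in CharmeKO 1 and at 0.278 to 3.22 CPM in the other 5 libraries. Of the resident markers *Timd4* and *Vsig4*, neither had a row, and *Folr2* had 4 to 29 reads per library. Of the MHC class II list, *H2-DMb1* was at 8.52, 10.5 and 11.4 CPM in WT and 9.95, 16.4 and 2.54 CPM in CharmeKO. *H2-DMa* was at 5.14, 2.45 and 4.57 CPM in WT and 5.68, 3.74 and 4.83 CPM in CharmeKO. *H2-Ab1*, with a lower mean than both, was at 6.19, 2.32 and 4.03 CPM in WT and 6.89, 1.31 and 0.0214 CPM in CharmeKO. *Cd74*, the invariant chain, had 1 to 14 reads per library. Of the remaining Fc gamma receptors, *Fcgr2b* was at 0.0855 to 4.14 CPM. Among the chemokines, *Ccl3* was at 0.880, 0.496 and 0.0779 CPM in WT and 1.90, 0.778 and 0.0641 CPM in CharmeKO, and *Ccl6* was at 0.919 to 27.3 CPM.

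The genes most like the macrophage set were sought among 12754 other genes with a mean of at least 1 CPM, by the root mean square distance between their centred log2 profile over the 6 libraries and the mean profile of the 27 genes. The 10 nearest were *Dock2*, *Myo1f*, *Ncf1*, *Fat3*, *Cd84*, *Slc15a3*, *Cd33*, *Nxpe5*, *Lmo2* and *Atp6v0d2*, at distances of 0.26 for *Dock2* to 0.36 for *Atp6v0d2*. *Dock2* was at 2.48, 0.991 and 0.338 CPM in WT and 4.83, 1.28 and 0.0855 CPM in CharmeKO. Within the set itself the distances from the mean profile ran from 0.25 for *Lcp1* and *Mpeg1* to 1.17 for *Csf1r*, 1.18 for *Ptprc*, 1.20 for *Fcgr1*, 1.30 for *Mertk* and 2.08 for *Cd14*.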

How the data were processed

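Poly(A) RNA of cultured CFs, in 3 WT and 3 CharmeKO libraries, was sequenced with a directional kit. The authors aligned with STAR, used its gene counts for the reverse strand (Ensembl annotation with *Charme* added), dropped genes with few reads and divided by DESeq2 size factors, so the deposited values are a normalised signal. The submitters' processing notes list GRCm39 and GRCh38, and the paper's methods name the mouse build. The table has no coordinates, and those given are from GENCODE on GRCm38 or RefSeq on GRCm38.p6. Division by the smallest positive value of each library gave whole reads for 100% of 116676 values (largest deviation 6.3e-09). CPM are these reads per 1000000 of the library total.

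The 15948 genes that reached 10 reads in 2 or more libraries were tested with limma 3.58.1 (R 4.3.3, mean-variance trend, log2(value + 1), two-sided) for genotype, and by its F test for replicate number beside genotype, with Benjamini-Hochberg adjustment over all genes at 0.05. edgeR 4.0.16 and DESeq2 1.42.0 on recovered reads, other pseudocounts, filters and scalings, the replicate block and leave-one-out fits were alternatives. Pairing was checked by correlating deviations from group means, which gave 0.76, 0.51 and 0.22 for same-numbered libraries and -0.64 to 0.22 for others. Reads were simulated for the 15948 genes with 200 changed by 2 log2 units (dispersion 0.05). On them limma recovered 194 with 20 false calls for genotype and 186 with 3 for replicate number. The genotype simulation held no difference between replicate numbers, whereas in the data the number took a median of 73.8% of the variance. Its recovery is therefore no measure of the power of the genotype test in these libraries. Figures used matplotlib 3.10.9.

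The members and all lists were chosen with earlier results of these data known. Genes named are all members found, some of the 3 genes of each other list with the highest mean CPM, those called, and the 10 nearest profiles. Genes among the 3 highest of their list whose levels are not given include *Gas6*, *Igf1*, *Ctsd*, *Fcgrt*, *Tgfb1*, *Ccl2*, *Cxcl16*, *Lyn*, *Plcg2*, *Itgb2* and *Itga4*. *Vav1*, *Folr2*, *Cd74*, *Ccl6*, *Il34* and single markers of other cells were named after their values were seen.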

Additional observations from a re-analysis of the deposited data

How the results depend on the processing

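The count of macrophage genes called between genotypes was 0 under all alternatives, and over all genes DESeq2 called 8, or 64 with the replicate block, against 0 by limma and edgeR. The median log2 fold change of the set was 0.09 to 0.18 under the other pseudocounts, filters and scalings and the replicate block fits, 0.66 by edgeR and DESeq2, and -1.03 to 1.47 in leave-one-out fits. Without the pair of number 1, 2 or 3 (chosen after seeing the data) it was -0.22, -0.25 and 0.74. The difference in summed log2 level was -0.49 to 1.58 in leave-one-out. The log2 fold change of *Ptprc* turned from -1.31 to 0.36 by edgeR and DESeq2 and to 0.50 without the third pair, and ranged from -2.99 to 1.01 in leave-one-out. That of *Lyz2* turned from 0.41 to -0.070 and -0.24 without the first or the second pair and ranged from -0.56 to 2.20, and that of *Cd14* ranged from -0.15 to 1.13. In leave-one-out 25 of 27 members changed sign at least once, and 22 did so under another tool, pseudocount, block or pair. Between replicate numbers, edgeR called 655 genes and 3 members and DESeq2 4944 and 23, against 1379 and 8, and leave-one-out fits called 0 to 5906 genes and 0 to 26 members. The cause was not tested. Members with few reads in number 3 (3 for *Fcgr1*) limit every ratio to that number.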
